A study of Macaca mulatta with 12 samples.

Results

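The comparison of estrogen plus progesterone (EP) with placebo covered 6 of the 12 arrays of the series: the 3 arrays titled with both hormones and the 3 titled as placebo, selected by those titles and described across all probe sets and across gene families. RNA came from the dorsal raphe of female rhesus monkeys and was hybridised to an Affymetrix rhesus array, with 1 monkey per chip. EP animals carried implants of both steroids for 1 month, while the placebo animals carried placebo implants over that month. The other groups used here as a background were 3 arrays of estrogen alone and 3 of progesterone alone, also at 1 month. The placebo titles bear the code OVX, read as ovariectomized, and the titles of the hormone groups bear no such code, so a shared ovariectomy is a reading of the placebo labels only. The titles of the progesterone arrays bear the code EP but their descriptions bear P, which was followed here.

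The dorsal raphe is the midbrain nucleus that supplies much of the forebrain with serotonin. Its serotonin neurons make the transmitter with tryptophan hydroxylase 2, load it into vesicles with the vesicular monoamine transporter and reclaim it with the serotonin transporter, and monoamine oxidase breaks it down. Estrogens act through the nuclear receptors ESR1 and ESR2 and through membrane receptors, progestins act mainly through PGR, and in many tissues estrogen induces PGR, so that the effect of progesterone depends on earlier or simultaneous estrogen.

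No gene separated EP from placebo beyond the multiple testing correction. The genes that came nearest, by their unadjusted p, included higher values of CNTNAP2, a neuronal adhesion protein, of BCAT1 and ALDH6A1, enzymes of branched-chain amino acid breakdown, and of the spine regulator KALRN, and lower values of the nuclear pore gene NUP160, the potassium channel gene KCNS3, the secretory GTPase gene SAR1B, the MAP kinase phosphatase gene DUSP1 and the surface protein genes CD99 and PLXDC2. Of 26354 probe sets tested with limma (log2 intensity, 1 mean per group over all 12 arrays, two-sided), 0 passed a Benjamini-Hochberg adjusted p of 0.05 (0%), and the lowest adjusted p was 0.999. At an unadjusted p under 0.05 there were 1017 probe sets (3.86%), 486 of them higher under EP (1.84%) and 531 lower (2.01%), against 1317.7 for p-values spread evenly. The count of 1017 depended on the setting. It was 1623 with the replicate number fitted as a block on the 6 arrays, and 631 to 1559 with 1 of them left out. The EP and placebo arrays did not overlap for 2771 probe sets (10.5%), with EP above in 1232 (4.67%) and below in 1539 (5.84%). That split depended on the scaling: with the array medians aligned in place of quantile normalization, 774 lay above and 1767 below. Every tested difference between EP and placebo named from here on therefore failed the correction in this fit. Differences are given as sizes or array values, many of them with their error. Probe sets below the brightness limit were not tested.

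**Figure D1:**
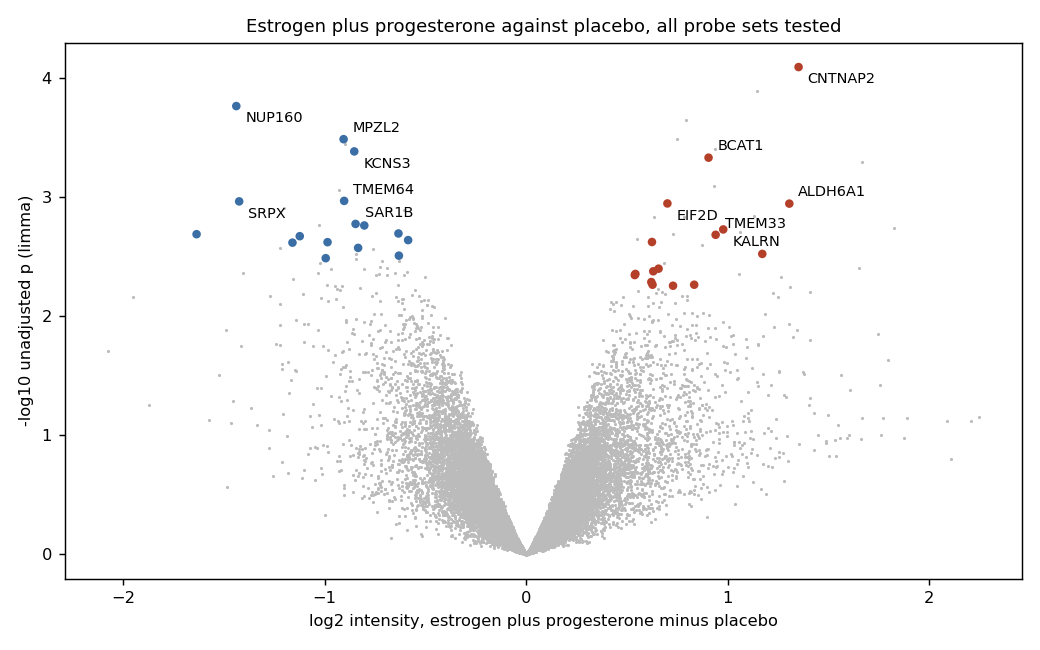
Each point is 1 of the 26354 probe sets tested, with the log2 intensity difference (EP minus placebo) across and minus log10 of the unadjusted limma p upward. The 16 genes with the lowest p on the higher side (red) and on the lower side (blue) are marked, and CNTNAP2 has the lowest p of them.

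The typical difference was small. The median log2 difference over all tested probe sets was -0.01, 47.9% of the probe sets were higher under EP, and the 95% confidence interval of a difference typically reached 0.49 (median) above and below it. The median SD within a group was 0.23 on the EP arrays and 0.21 on the placebo arrays, on the log2 scale. Among the 1017 probe sets at an unadjusted p under 0.05, 545 carried 1 gene name, for 521 genes. Differences of 2-fold or more made up 55 higher and 40 lower probe sets of the 1017.

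Single arrays stood apart. The median intensity of the 6 arrays lay between 78.4 and 93.6, and Spearman correlations between arrays were 0.895 to 0.954 within EP, 0.897 to 0.946 within placebo and 0.883 to 0.954 between the groups. On the first principal component of all 12 arrays (23.6% of the variance) the first EP array lay at -44.0, the first estrogen array at -44.9 and the first placebo array at -51.5, with the other 9 arrays between -1.71 and 29.0. The first EP array was at least 1 log2 unit below all 5 others on 190 probe sets and the first placebo array on 533, against 26 to 58 on the other 4. The first EP array also differed in the log2 signal of 3′ minus 5′ control probe sets for GAPDH and EF1A. It was at 1.11 for GAPDH and 0.65 for EF1A, where the other 5 arrays had 0.34 to 0.50 and -0.08 to 0.07. For actin it was at 0.48, inside the 0.11 to 0.63 of the other 5. Such signals bear on RNA or labelling quality, whose part in the results was not tested. Values of a group are listed below in the order of the replicate numbers, so that the first value of each group comes from these arrays. In tissue pieces like these, fewer cells of a type and less RNA per cell cannot be told apart.

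CNTNAP2 had the lowest p of all named genes on the higher side. It codes for a neurexin-family membrane protein of axons, which holds voltage-gated potassium channels beside the nodes of Ranvier. Its log2 intensity was 9.18, 9.31 and 9.41 on the EP arrays, against 7.99, 7.77 and 8.09 on the placebo arrays. The lowest EP array lay more than 1 log2 unit above the highest placebo array, and the difference was 1.35 ± 0.23 (SE, n = 3 per group), a fold of 2.55 (95% confidence interval of the log2 difference 0.85 to 1.85, limma unadjusted p = 8.10e-05, adjusted p = 0.999). Leaving out any 1 of the 6 arrays kept it between 1.26 and 1.42. The brightest of its 4 probe sets differed by 1.23 ± 0.41, at 9.43, 9.75 and 9.50 under EP against 8.42, 7.77 and 8.80 under placebo, again without overlap. Its other probe sets differed by 0.34 and -0.22 with overlapping groups, so the gene as a whole was not uniform across its probe sets.

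Enzymes that break down branched-chain amino acids stood next. BCAT1, the cytosolic aminotransferase that takes the amino group from leucine, isoleucine and valine, had 7.36, 7.48 and 7.29 on the EP arrays, against 6.24, 6.45 and 6.73 on the placebo arrays, a difference of 0.90 ± 0.19. ALDH6A1, a mitochondrial dehydrogenase late in valine breakdown, had 8.54, 8.35 and 8.23 under EP, against 6.74, 6.89 and 7.57 under placebo, a difference of 1.31 ± 0.30. On these probe sets the groups did not overlap, and the third placebo array was the nearest to EP in each. PPM1K, the phosphatase that activates the branched-chain ketoacid dehydrogenase, had 2 probe sets at an unadjusted p under 0.05: the brighter had 9.49, 8.89 and 9.09 under EP against 7.77, 7.94 and 9.05 under placebo (0.90 ± 0.33), and the other had 9.26, 8.24 and 8.79 against 7.84, 7.82 and 8.28 (0.78 ± 0.25). In both, the third placebo array lay above the second EP array, so the groups overlapped.

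The probe sets of these enzymes did not all move together. ALDH6A1 had a second, brighter probe set without overlap (1.06 ± 0.27) and a pair that differed by 0.20 and 0.11. The brightest of the 4 BCAT1 probe sets was at 9.41, 9.74 and 9.68 under EP against 9.69, 9.82 and 9.83 under placebo, a difference of -0.17 ± 0.40 in the other direction. The remaining BCAT1 probe sets differed by 0.56 ± 0.25 and 0.33 ± 0.37, each with overlap. Over the whole list of branched-chain amino acid breakdown, read on the brightest probe set of each gene, 10 of 16 measured genes were higher and 6 lower, with a median of 0.09. An unadjusted p under 0.05 was reached by 2 on the higher side (1.48% of all 9299 named genes read the same way) and by 0 on the lower side (1.91%). Without the second EP array the median of the list was -0.01. AUH, a hydratase of leucine breakdown, was higher without overlap (0.23 ± 0.15), while HIBCH (-0.30), which acts before ALDH6A1 on valine, and BCAT2 (-0.28), the mitochondrial aminotransferase, were lower.

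**Figure D2:**
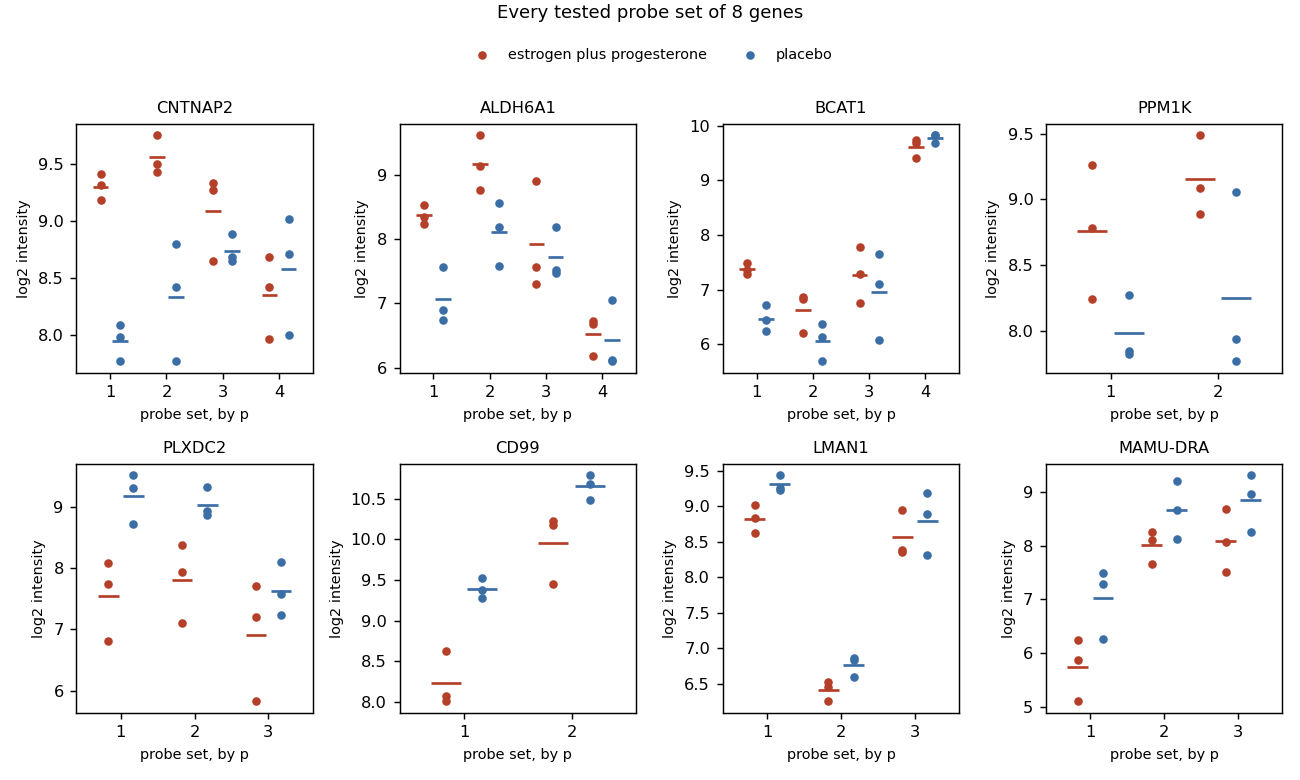
Log2 intensity of every tested probe set of 8 genes on the 3 EP arrays (red, left of each pair) and the 3 placebo arrays (blue), with bars at the group means and probe sets ordered by p. The first 2 probe sets of CNTNAP2, ALDH6A1 and PLXDC2 separate the groups, and the later ones of these genes overlap. For BCAT1 only the first probe set separates the groups.

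KALRN codes for a signalling protein that shapes dendritic spines. It was at 7.30, 7.46 and 7.86 under EP, against 5.99, 6.86 and 6.83 under placebo, without overlap (0.98 ± 0.24). The first placebo array was the lowest, and without it the difference was 0.69. A second, brighter KALRN probe set differed by 0.06.

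EIF2D, a translation factor that brings initiator tRNA to the small ribosomal subunit, was even within EP. Its values were 7.60, 7.62 and 7.60 on the EP arrays, against 6.98, 6.70 and 7.04 on the placebo arrays (0.70 ± 0.16). RPS6KB1, the S6 kinase of the mTOR pathway, had 8.76, 8.86 and 8.67 under EP, against 7.76, 8.44 and 8.22 under placebo (0.62 ± 0.18), but its other 2 probe sets differed by -0.12 and -0.18. Translation factors as a list were evenly divided, 22 higher and 19 lower of 41 with a median of 0.03.

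The remaining genes among the 16 lowest p on the higher side spanned several functions. UBAP1L had 7.26, 7.01 and 7.93 under EP, against 6.47, 6.58 and 5.63 under placebo (1.17 ± 0.31), and TMEM33, a membrane protein of the endoplasmic reticulum, had 8.52, 8.53 and 8.37 against 7.84, 7.02 and 7.74 (0.94 ± 0.24). The transcriptional repressor ZBTB33 (0.83), the Wnt deacylase NOTUM (0.73), the repair polymerase POLL (0.66), the matrix metalloproteinase MMP28 (0.63), the helicase RAD54L2 (0.63), the chondroitin sulfotransferase CHST12 (0.62), FAM241B (0.54) and RMND1 (0.54), which acts in mitochondrial translation, were also higher without overlap. The SE of the 16 differences lay between 0.15 and 0.31. The brightest probe sets of ZBTB33 (-0.16), CHST12 (-0.07), MMP28 (0.24) and TMEM33 (0.36) overlapped between the groups. A second RMND1 probe set differed by 0.003, and the dimmer TMEM33 probe sets with overlap by -0.18, -0.07 and 0.01.

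On the lower side NUP160, a scaffold protein of the nuclear pore, had the lowest p. It was at 5.89, 6.32 and 5.61 under EP, against 7.82, 7.26 and 7.06 under placebo, without overlap (-1.44 ± 0.26, limma unadjusted p = 0.000172, adjusted p = 0.999). Its brighter probe set overlapped, with a difference of -0.10. The list of nuclear pore and transport genes was close to even, with 18 of 40 higher and 22 lower.

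**Figure D3:**
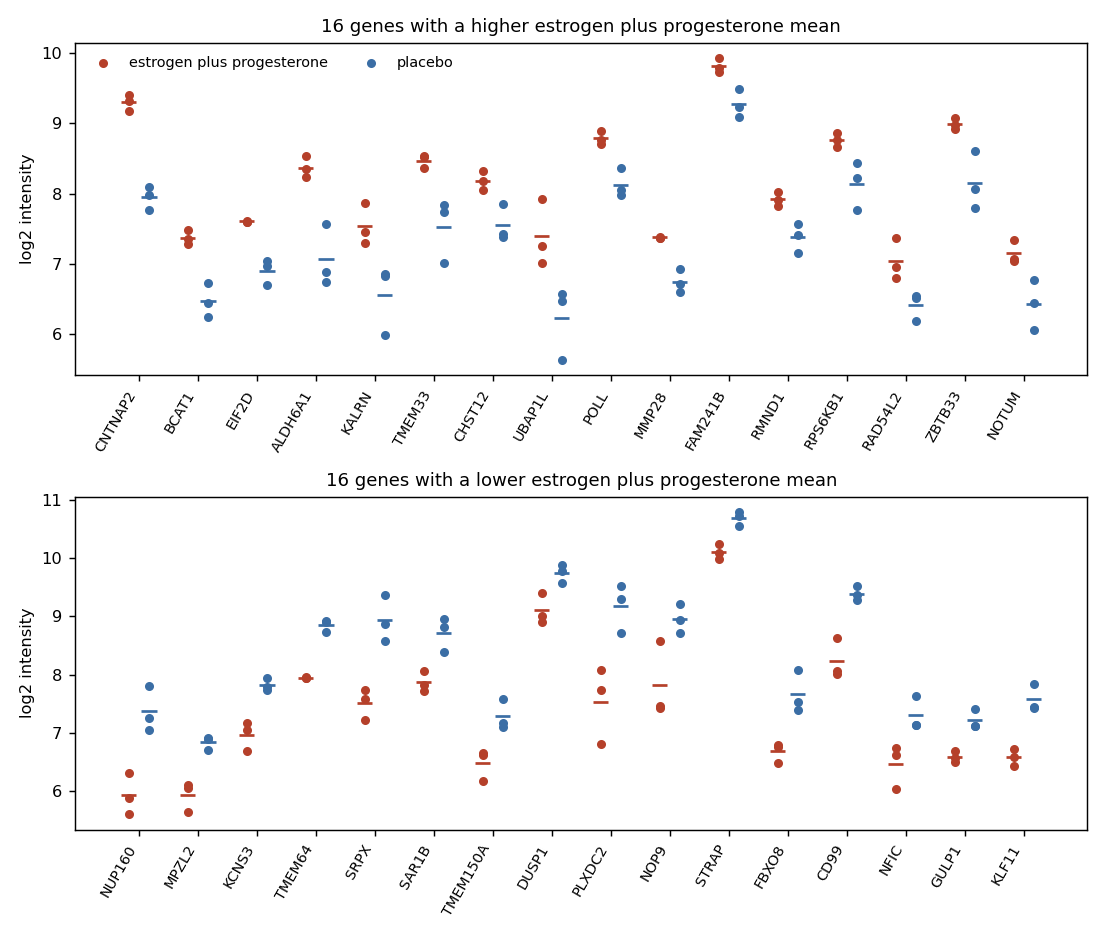
Log2 intensity of the 16 genes with the lowest p on the higher side (top) and on the lower side (bottom), with EP arrays in red to the left of placebo arrays in blue and bars at the group means. The 3 EP arrays of TMEM64 lie between 7.94 and 7.96, below the placebo arrays at 8.74 to 8.93.

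TMEM64, a membrane protein, and KCNS3, a silent subunit that modifies Kv2 potassium channels, were lower without overlap. TMEM64 had 7.95, 7.94 and 7.96 under EP, against 8.90, 8.74 and 8.93 under placebo (-0.90 ± 0.21), and its other probe sets differed by -0.40 and -0.08. KCNS3 had 6.69, 7.06 and 7.18 under EP, against 7.95, 7.79 and 7.74 under placebo (-0.85 ± 0.17). A further potassium channel gene, KCNMB2, the beta 2 subunit of the calcium-activated BK channel, had one of the larger differences: 6.28, 5.97 and 5.48 under EP, against 6.84, 7.82 and 7.56 under placebo (-1.49 ± 0.51). The 45 measured potassium channel genes as a list leaned the other way, 27 higher and 18 lower with a median of 0.06. At an unadjusted p under 0.05, 0 of them were higher and 3 lower (1.48% and 1.91% over all named genes). The EP arrays lay above placebo for 4 of them (4.82% over all named genes) and below it for 3 (6.1%).

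Several lower genes code for proteins of the cell surface or the matrix. CD99, an adhesion protein of leukocytes and other cells, had 8.0045, 8.62 and 8.07 under EP, against 9.52, 9.28 and 9.37 under placebo (-1.16 ± 0.30), and its brighter probe set was also lower without overlap (-0.70 ± 0.25). PLXDC2, a transmembrane protein with a plexin domain, had 8.08, 7.74 and 6.81 under EP, against 9.51, 9.30 and 8.72 under placebo (-1.64 ± 0.41). In PLXDC2 the third array was the lowest of its group in both groups, and its other probe sets differed by -1.22 without overlap and by -0.72 with overlap. SRPX, a sushi-repeat protein, was lower by a log2 difference of -1.42 and MPZL2, an immunoglobulin-family adhesion protein, by -0.91.

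Transcription and signalling genes on the lower side included KLF11, a Krüppel-like factor that binds the monoamine oxidase promoters in human cells. KLF11 was at 6.72, 6.44 and 6.59 under EP, against 7.85, 7.45 and 7.43 under placebo (-0.99 ± 0.27), but its brightest probe set differed by 0.06. MAOA itself was at 9.53, 9.63 and 9.997 under EP, against 9.68, 9.73 and 9.55 under placebo (0.07 ± 0.20), with full overlap. NFIC, a nuclear factor I gene, had -0.83 on one probe set and 0.16 to 0.32 on its other 3. FBXO8 (-0.99), NOP9 (-1.12), which acts in ribosome assembly, STRAP (-0.59), GULP1 (-0.63), an engulfment adaptor, and TMEM150A (-0.80) completed the 16 genes of the lower side. NOP9 had 4 other probe sets between -0.11 and 0.13. The brightest GULP1 probe set differed by 0.09 and a further one by -0.19, each with overlap. A dimmer STRAP probe set differed by -0.35 with overlap.

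Across the 32 genes with the lowest p, 20 had other tested probe sets, 41 in all, and 23 of the 41 differed in the same direction as the one that put the gene among the 32. The low p of a gene therefore often stood on 1 of several probe sets. A stricter view, chosen after the values were seen, takes genes with 2 or more probe sets at an unadjusted p under 0.05. There were 23 such genes, of which 9 had them all higher, 7 all lower and 7 in opposite directions. The tested probe sets with 1 gene name numbered 15009 for 9299 genes. The share of genes that could qualify was not computed, so the 23 are a description without a background rate.

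The 9 with all of them higher were CNTNAP2, ALDH6A1, BCAT1 and PPM1K, described above, LIN7A, SLC7A2, DMAC2, KLHDC10 and ZNF148. LIN7A, a scaffold protein of synapses, had 7.68, 8.68 and 8.24 under EP, against 6.05, 7.62 and 7.01 under placebo (1.30 ± 0.43), and 3 further probe sets without overlap (0.91, 0.60 and 0.26), while its brightest differed by less than 0.01. The remaining LIN7A probe set differed by -0.17 with overlap. SLC7A2, a transporter of arginine and lysine, had 9.16, 8.55 and 9.03 under EP, against 7.34, 8.36 and 8.47 under placebo (0.86 ± 0.37). The first placebo array was the lowest in both genes, and the SLC7A2 difference was 0.50 without it.

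The 7 with all of them lower were CD99, PLXDC2, ASAH1, CD47, LMAN1, LXN and SMAD5. ASAH1, the lysosomal acid ceramidase, had 3 such probe sets, and the one with the lowest p was at 10.57, 10.62 and 10.04 under EP, against 11.10, 10.90 and 10.91 under placebo (-0.56 ± 0.19, and -0.37 without the third EP array). CD47, the surface protein that restrains phagocytosis, had 9.22, 9.02 and 8.86 under EP, against 9.50, 9.75 and 9.39 under placebo (-0.52 ± 0.16). SMAD5, a signal transducer of bone morphogenetic proteins, was even within both groups, at 7.95, 7.87 and 7.95 under EP against 8.59, 8.55 and 8.53 under placebo (-0.63 ± 0.17). The 7 genes with opposite directions were AIG1, EIF2S2, RCHY1, SMC3, TANK, WDR36 and WDR59. For AIG1 the 2 probe sets differed by 0.62 and -0.42.

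The serotonin system showed no regular difference. TPH2, which catalyses the slowest step in making serotonin in the brain, had 8.85, 8.51 and 7.53 under EP, against 6.47, 7.44 and 7.80 under placebo. The third EP array lay below the third placebo array, so the groups overlapped, and the difference was 1.06 ± 0.65 (95% confidence interval -0.36 to 2.49). Without the first placebo array it was 0.68, and without the first EP, estrogen and placebo arrays it was 0.40. SLC18A2, the vesicular monoamine transporter, had 10.26, 10.04 and 10.01 under EP, against 10.12, 10.45 and 9.95 under placebo (-0.07 ± 0.22). FEV, the transcription factor that sets serotonin neuron identity, had 9.54, 9.82 and 9.07 under EP, against 9.30, 10.14 and 9.46 under placebo (-0.16 ± 0.26). These 3 genes and GATA3, at 9.35, 9.43 and 9.36 under EP against 9.16, 9.58 and 9.33 under placebo, are markers of serotonin neurons, and all 4 passed the brightness limit of the test. LMX1B, a further marker, was under that limit, and SLC6A4 and DDC had no named probe set here.

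Of 8 genes that make, carry or break down serotonin, 5 were higher and 3 lower (median 0.07), with 0 at an unadjusted p under 0.05 by limma. GCH1, which makes the tetrahydrobiopterin cofactor of TPH2, was at 8.003, 8.47 and 7.99 under EP, against 8.04, 8.84 and 8.57 under placebo (-0.33). Among the 7 measured serotonin receptor genes 2 were higher and 5 lower (median -0.08), from -0.53 for HTR7 to 0.32 for HTR2A. The autoreceptor gene HTR1A was too dim to be tested, with 5.78, 4.997 and 5.44 under EP, against 3.57, 4.32 and 5.65 under placebo. In the corticotropin-releasing hormone system, which controls raphe neurons under stress, CRHR2 was at 8.91, 8.07 and 8.19 under EP, against 8.11, 8.20 and 8.05 under placebo (0.27 ± 0.25), and it was 0.01 without the first EP array. CRHR1 differed by -0.05 ± 0.28 and UCN by -0.04 ± 0.38. The neurotrophin gene BDNF had 5.74, 6.28 and 6.79 under EP, against 6.13, 6.43 and 6.47 under placebo, with overlap.

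Receptors for the implanted hormones were dim or overlapped. ESR2, estrogen receptor beta, had 7.66, 6.81 and 7.39 under EP, against 7.22, 7.06 and 6.56 under placebo (0.34 ± 0.31), and leaving out 1 array gave 0.15 to 0.58. ESR1 was below the brightness limit, at 5.75, 4.86 and 5.27 under EP, against 3.15, 5.60 and 5.30 under placebo. PGR, the progesterone receptor, was listed at the floor of 2.33 on all 3 EP arrays and at 3.90, 2.33 and 3.24 on the placebo arrays, values too dim to rank. FKBP5, a glucocorticoid and progestin target, was likewise below the limit, at 2.98, 3.55 and 4.90 under EP, against 5.09, 4.53 and 4.21 under placebo. Of the 7 measured steroid receptor genes 6 were higher and 1 lower (median 0.05). The exception was PAQR6, a membrane progestin receptor, whose EP arrays (12.10, 12.17 and 12.11) all lay below the placebo arrays (12.26, 12.24 and 12.21), by a difference of -0.11 ± 0.16 that was 0.02 without further normalization.

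Genes known to respond to the hormones did not lean toward higher values. Of 20 measured genes known to respond to estrogen, 7 were higher and 13 lower (median -0.09). SLC7A2 was the single one higher without overlap (5% of the list, 4.82% over all named genes), and 0% lay below placebo (6.1%). BCL2, an apoptosis inhibitor, had 7.73, 5.15 and 4.995 under EP, against 7.39, 7.51 and 7.33 under placebo (-1.45 ± 0.67), with the first EP array apart from the other 2. Of 15 progestin and corticosteroid responsive genes, 7 were higher and 8 lower (median -0.03). ZBTB16, a zinc finger gene induced by both kinds of steroid, had 9.23, 9.21 and 9.29 under EP, against 8.32, 8.75 and 9.14 under placebo (0.51 ± 0.24), and its difference was 0.30 without the first placebo array. Among receptor coregulators, NCOA2 was at 9.69, 9.32 and 9.28 under EP, against 7.88, 9.18 and 8.77 under placebo (0.82 ± 0.29), and its difference was 0.46 without the first placebo array. The brightest NCOA2 probe set lay below placebo on all 3 EP arrays (-0.19), so the gene had no single direction. CARM1, a coactivating methyltransferase, had 0.38 ± 0.17 and the acetyltransferase EP300 -0.33 ± 0.18, each without overlap.

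Among genes of MAP kinase signalling, single kinase genes were higher and the phosphatase gene DUSP1 lower. MAPK3, which codes for ERK1, was at 10.41, 10.58 and 10.36 under EP, against 9.69, 10.17 and 9.65 under placebo (0.61 ± 0.21). MAP2K5, the kinase that activates ERK5, was at 7.97, 8.13 and 8.03 under EP, against 7.55, 7.81 and 7.77 under placebo (0.33 ± 0.15). MAPK14, the p38 alpha gene, differed by 0.81 ± 0.36 with the first placebo array inside the EP range. Over the 26 MAP kinases and upstream kinases measured, 18 were higher and 8 lower with a median of 0.09, against -0.01 for all named genes. Of these, 3 were higher and 0 lower at an unadjusted p under 0.05 (1.48% and 1.91% over all named genes). The EP arrays lay above placebo for 3 (4.82% over all named genes) and below it for 0 (6.1%). The 3 above placebo were MAPK3, MAP2K5 and MAP3K12 (0.25 ± 0.18), the last of which was 0.12 without the second EP array. MAP3K1, a kinase upstream of JNK, lay below placebo on a dimmer probe set (-0.23) and overlapped on its brightest (-0.08).

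DUSP1, the dual-specificity phosphatase that switches off ERK, JNK and p38, was at 9.41, 8.90 and 9.01 under EP, against 9.77, 9.87 and 9.58 under placebo (-0.63 ± 0.16). Its family, the dual-specificity phosphatases, was even, with 7 of 14 higher and 7 lower (median 0.04). NR4A1, an orphan nuclear receptor induced within minutes by neuronal activity, was at 5.95, 6.47 and 6.64 under EP, against 6.90, 7.62 and 6.96 under placebo (-0.81 ± 0.23). DUSP1 and NR4A1 belong to the immediate early genes, a class that cells switch on briefly after stimulation. Of 17 measured immediate early genes 4 were higher and 13 lower, with a median of -0.14, and the 2 without overlap were both lower (6.1% below and 4.82% above over all named genes). FOS differed by 0.13, KLF4 by -0.38 and IER5 by -0.37. Across the alternative settings the median lay between -0.27, without the second EP array, and -0.05.

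Synaptic adhesion genes leaned to higher values, and much of the lean lay in 1 placebo array. Of 47 measured synaptic adhesion and organizer genes, which align the membranes on either side of the synapse, 30 were higher and 17 lower, with a median of 0.12. Without the first placebo array the median was 0.02. LRRC4B was at 8.42, 8.91 and 9.18 under EP, against 5.08, 8.69 and 9.26 under placebo, and CNTNAP1 at 7.34, 8.05 and 7.82 against 4.83, 7.82 and 8.14, so that the first placebo array alone was low in both. LRRTM1, a postsynaptic adhesion protein, had a different pattern, with 7.16, 6.83 and 6.99 under EP, against 6.99, 5.99 and 6.12 under placebo (0.63 ± 0.24). FLRT2 was the only list member beside CNTNAP2 whose brightest probe set was above placebo on all 3 EP arrays. Together they made up 4.26% of the list (4.82% over all named genes), and 0% lay below placebo (6.1%). NCAM1, the neural cell adhesion molecule, had 1 probe set of 10 lower at -0.39 ± 0.15 and 9 others between -0.18 and 0.52. The one at -0.18 also lay below placebo on all 3 EP arrays.

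The same array was low in some other bright genes, but not in several markers of cell types. The neuronal marker SYT1 was at 11.65, 11.87 and 11.86 under EP, against 11.70, 11.89 and 11.66 under placebo, and the astrocyte marker GFAP at 12.97, 13.26 and 13.18 against 13.18, 13.08 and 13.11. The glutamate transporter SLC1A2, also made by astrocytes, was at 12.16, 12.08 and 12.19 under EP, against 8.75, 12.01 and 12.04 under placebo, and its difference of 1.21 ± 0.66 was 0.12 without that array. The kinesin KIF5C, an axonal transport motor, was at 11.27, 10.38 and 10.80 under EP, against 4.86, 10.18 and 10.78 under placebo. ARHGAP32, a regulator of dendritic spines, was at 10.44, 10.24 and 10.19 under EP, against 6.73, 9.81 and 10.12 under placebo, and its difference of 1.40 ± 0.66 was 0.32 without that array. Groups in SLC1A2 and ARHGAP32 did not overlap, yet the other 2 placebo arrays lay within 0.5 log2 units of the EP mean.

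Sodium and calcium channel genes included several without overlap. SCN9A, a voltage-gated sodium channel, was at 6.78, 6.40 and 6.99 under EP, against 5.69, 6.12 and 6.12 under placebo (0.75 ± 0.26). CACNA2D1 (0.60 ± 0.28) and CACNA1F (0.32 ± 0.15) were higher and CACNA1D (-0.31 ± 0.16) lower, each without overlap. The CACNA1D difference was -0.20 without the first EP array. Of 24 sodium and calcium channel genes 12 were higher and 12 lower, with the EP arrays wholly above placebo in 5 (4.82% over all named genes) and wholly below in 1 (6.1%). At an unadjusted p under 0.05 there were 1 higher and 0 lower (1.48% and 1.91% over all named genes). The median of the list was 0.02, and -0.09 without the first placebo array. STX1A, a membrane SNARE of vesicle release, was higher (0.57 ± 0.22, and 0.35 without the first placebo array) and STXBP6, a syntaxin-binding protein, lower (-0.42 ± 0.16), in a synaptic vesicle list with 23 of 45 higher and 22 lower.

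Genes of early secretory transport were lower in several cases. SAR1B, the GTPase that starts COPII coat assembly at the endoplasmic reticulum, had 7.83, 7.72 and 8.06 under EP, against 8.95, 8.81 and 8.39 under placebo (-0.85 ± 0.21). LMAN1, the cargo receptor that COPII vesicles carry, had 9.02, 8.84 and 8.62 under EP, against 9.44, 9.25 and 9.23 under placebo (-0.48 ± 0.17), with a second probe set lower at -0.35 ± 0.16. SEC24A, a coat subunit that selects cargo, was at 7.47, 7.30 and 7.12 under EP, against 7.80, 7.80 and 7.50 under placebo (-0.41 ± 0.16), and TMED1, another cargo receptor, had -0.50 ± 0.20, and -0.26 without the first EP array. All 4 lay below placebo on every EP array. Yet 3 other SAR1B probe sets differed by -0.01 to 0.09, and its close relative SAR1A differed by 0.17. The brightest SEC24A probe set also lay below placebo on every EP array, by -0.28 ± 0.17, and its dimmest differed by -0.11 with overlap. A further LMAN1 probe set differed by -0.23 with overlap.

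Of 38 measured secretory coat genes 13 were higher and 25 lower, with a median of -0.04. At an unadjusted p under 0.05 there were 0 higher and 3 lower (1.48% and 1.91% over all named genes), and 5 lay below placebo on all EP arrays (6.1%). The peroxisome and fatty acid oxidation list was similar in form, with 7 of 19 higher and 12 lower (median -0.07), 2 lower at an unadjusted p under 0.05 (1.91% over all named genes) and 4 below placebo without overlap (6.1%). Its members AMACR, a racemase of branched fatty acids, had 7.66, 8.12 and 7.77 under EP, against 8.93, 8.20 and 8.61 under placebo (-0.73 ± 0.22), and PEX2, a peroxisome assembly protein, had 7.59, 7.55 and 7.49 against 8.38, 7.78 and 7.91 (-0.48 ± 0.18, and -0.30 without the first placebo array). ACADM, the medium-chain acyl-CoA dehydrogenase, was also lower (-0.32 ± 0.15).

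**Figure D4:**
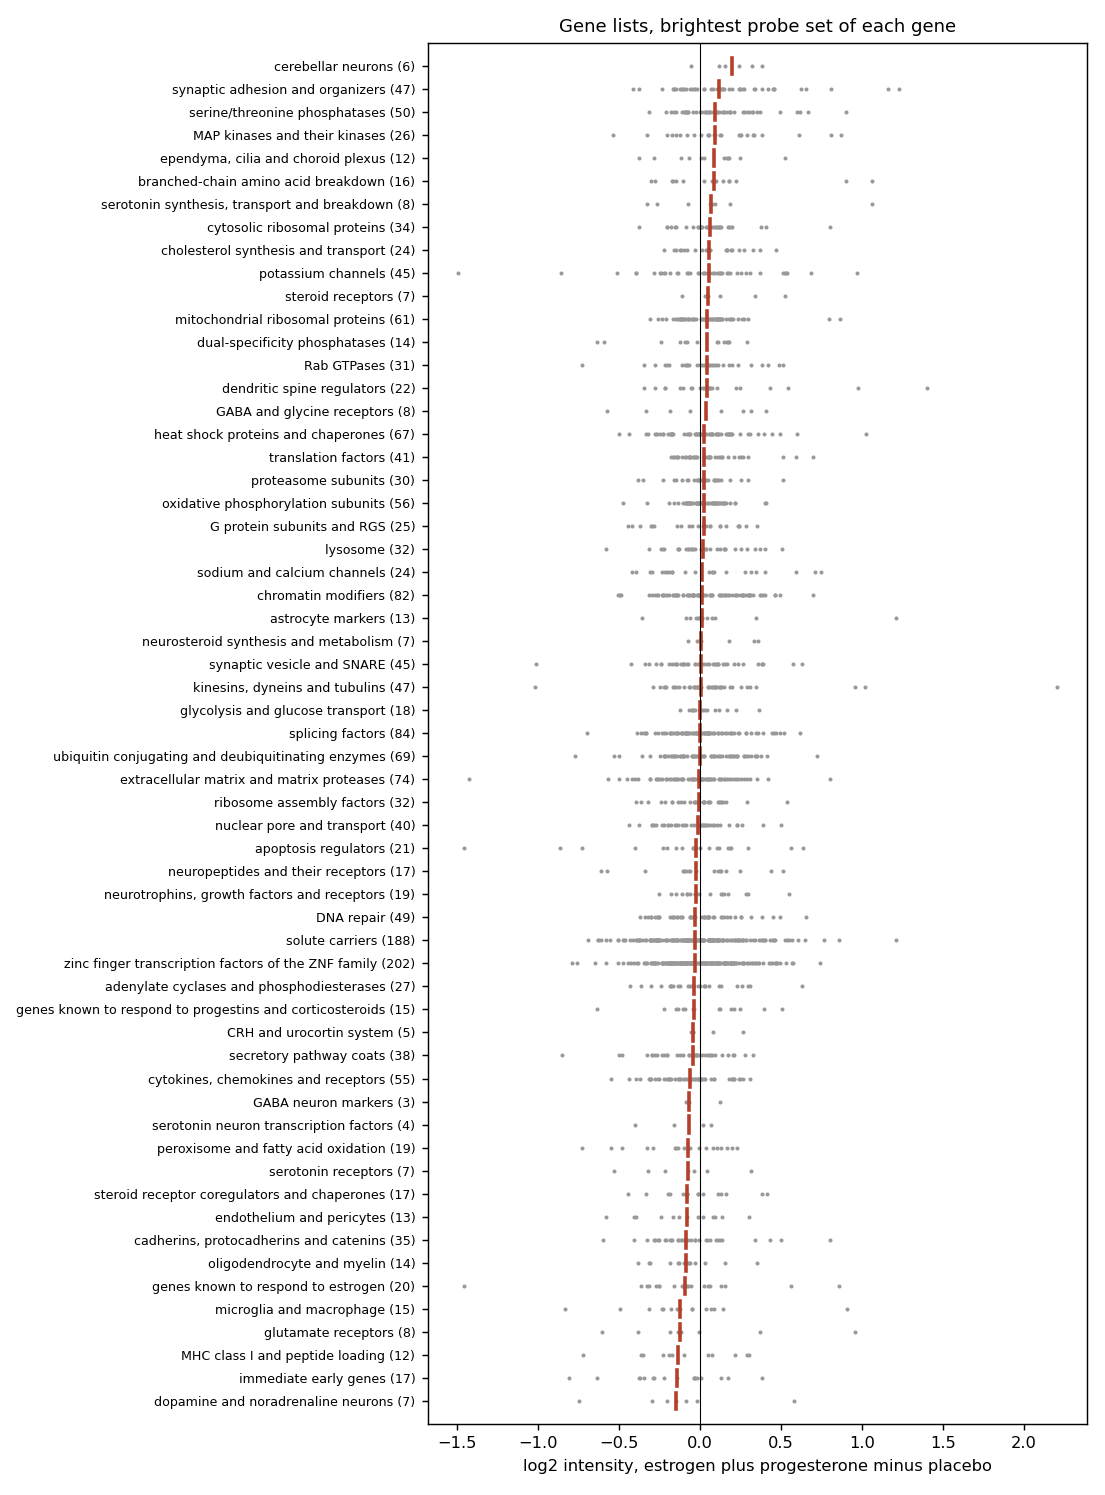
Log2 intensity difference (EP minus placebo) of each list member on its brightest probe set (grey points), with the median of each list as a red bar and the number of genes tested in brackets, for lists of 3 or more genes. Medians of the lists with 5 or more genes lie between -0.15 and 0.20, and the point farthest to the right is KIF5C at 2.21, whose first placebo array is at 4.86.

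Immune genes differed gene by gene. MAMU-DRA, the alpha chain of a class II histocompatibility protein, had 5.88, 6.25 and 5.10 under EP, against 7.29, 6.27 and 7.49 under placebo (-1.27 ± 0.39). The second placebo array lay just above the highest EP array, and 2 brighter probe sets of the gene differed by -0.65 and -0.75 with overlap. In class I, MAMU-B had 11.39, 11.31 and 10.96 under EP, against 11.78, 11.49 and 11.46 under placebo (-0.36 ± 0.16, and -0.23 without the third EP array). B2M, the light chain shared by class I proteins, was lower on one probe set (-0.35 ± 0.15, without overlap) and differed by -0.10 on its brighter one. Of 12 class I and peptide loading genes 5 were higher and 7 lower (median -0.14), and the median was 0.10 without the first EP, estrogen and placebo arrays. Class I genes are near-identical copies of each other, so their probe sets may share signal.

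P2RY12, the purinergic receptor that marks resting microglia, was at 9.18, 8.89 and 8.10 under EP, against 9.94, 9.47 and 9.25 under placebo (-0.83 ± 0.31), and the difference was -0.52 without the third EP array. A dimmer P2RY12 probe set differed by -0.40 ± 0.31 with overlap. MRC1, the mannose receptor of perivascular macrophages, was at 9.999, 9.79 and 10.12 under EP, against 8.14, 9.45 and 9.60 under placebo (0.91 ± 0.32), and 0.45 without the first placebo array. A dimmer MRC1 probe set lay below placebo on all 3 EP arrays (-0.45 ± 0.26). The brighter probe sets of P2RY12 and MRC1 differed in opposite directions within 1 list, in which 5 of 15 were higher and 10 lower (median -0.12, and 0.05 without the first placebo array). The mean of 4 microglial markers was 7.94 to 8.36 on the EP arrays, against 8.40 to 8.81 on the placebo arrays, but P2RY12 is 1 of the 4. The other 3 overlapped between the groups: AIF1 was at 7.54, 7.83 and 7.62 under EP, against 8.06, 7.69 and 7.66 under placebo, CSF1R at 9.54, 8.97 and 8.77 against 9.74, 9.18 and 9.06, and CX3CR1 at 7.19, 7.61 and 7.27 against 7.49, 7.47 and 7.64. Whether P2RY12 moved with the number of microglia was not tested. Of 55 cytokine, chemokine and receptor genes 18 were higher and 37 lower (median -0.06). TNFAIP6, a hyaluronan-binding protein induced by inflammation, had -0.86 ± 0.30 on one probe set and -0.18 on its brightest. The interleukin 13 receptor gene IL13RA1 had -0.55 ± 0.20, without overlap.

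Markers of other tissue set the second EP array apart from the other EP and placebo arrays. The 6 measured cerebellar genes averaged 8.67 on that array and 8.06 and 7.88 on the other EP arrays, against 7.95 to 8.10 on the placebo arrays. On the arrays of estrogen alone these genes averaged 8.02 to 9.06, the highest of them above the second EP array. PCP2, a Purkinje cell gene below the brightness limit, stood at 3.80, 6.20 and 3.33 under EP, against 2.59, 3.95 and 3.11 under placebo. The cilia, ependyma and choroid plexus list averaged 7.96 on the same array and 7.61 to 7.73 on the other 5. Of the cerebellar genes 5 of 6 were higher under EP (median 0.20), and the median was -0.09 without the second EP array. Whether these cells contributed to other differences was not tested. Without that array CNTNAP2 was 1.34, ALDH6A1 1.32, NUP160 -1.63, SAR1B -0.77, DUSP1 -0.53, NOP9 -1.50 and MAP3K12 0.12.

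The 2 largest families had medians near 0. Among 202 zinc finger genes of the ZNF family 92 were higher and 110 lower (median -0.03), with ZNF217 (-0.65 ± 0.20), ZNF146 (-0.58 ± 0.19) and ZNF598 (0.47 ± 0.15) at the lowest p without overlap. Among 188 solute carriers 87 were higher and 101 lower (median -0.03), with the choline transporter-like SLC44A3 (0.45 ± 0.14) and the neuronal amino acid carrier SLC6A17 (0.61 ± 0.20) higher and the glucose carrier SLC2A10 (-0.61 ± 0.21) and sodium-proton exchanger SLC9A3 (-0.58 ± 0.19) lower. Of 56 oxidative phosphorylation subunits 30 were higher and 26 lower (median 0.03). Cytosolic ribosomal proteins were higher in 23 of 34 (median 0.06), mitochondrial ribosomal proteins in 37 of 61 (median 0.05) and genes of cholesterol synthesis and transport in 16 of 24 (median 0.06). Serine/threonine phosphatases were higher in 35 of 50 (median 0.09), with 3 higher and 0 lower at an unadjusted p under 0.05 (1.48% and 1.91% over all named genes), among them PPP1R16A (0.62 ± 0.21). Myelin and oligodendrocyte genes were lower in 11 of 14 (median -0.09), and MBP, the myelin basic protein gene, was not among the lower ones on its brightest probe set, at 13.36, 13.47 and 13.52 under EP against 13.39, 13.43 and 13.43 under placebo. A dimmer MBP probe set was at 12.75, 12.73 and 12.74 under EP, against 12.91, 12.89 and 12.90 under placebo, a difference of -0.16 ± 0.12 that was 0.06 with medians aligned.

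Over all 60 lists, 31 had a median above 0 and 29 below. Their 1980 measured genes held 41 higher and 40 lower at an unadjusted p under 0.05 (1.48% and 1.91% over all 9299 named genes), and 0 past the adjusted p by limma. The EP arrays lay above placebo for 111 of these genes and below it for 118 (4.82% and 6.1% over all named genes).

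Some genes with the largest differences, as opposed to the lowest p, depended on a single array. TOB2, an antiproliferative protein, had 7.43, 5.74 and 6.37 under EP, against 5.42, 5.52 and 4.36 under placebo (1.41 ± 0.42), and 0.95 without the first EP array. Its brighter probe sets differed by 0.13 and 0.11 with overlap. FOXP2, a transcription factor of neural circuits for vocal learning, had 6.60, 6.35 and 4.73 under EP, against 7.37, 7.23 and 6.70 under placebo (-1.21 ± 0.48), and -0.63 without the third EP array. A dimmer FOXP2 probe set differed by 0.14, in the other direction. ISG20L2, an exonuclease of ribosomal RNA processing, had 5.25, 7.37 and 7.64 under EP, against 8.30, 8.07 and 8.14 under placebo (-1.42 ± 0.51), and -0.67 without the first EP array. The brightest ISG20L2 probe set differed by -0.29 with overlap. Others of this size were SPG11, a protein of lysosome renewal mutated in hereditary spastic paraplegia, with 7.85, 7.61 and 7.48 under EP, against 6.76, 5.49 and 6.76 under placebo (1.31 ± 0.39), and PRKX, a protein kinase related to protein kinase A, with 10.64, 10.54 and 10.93 against 9.59, 9.90 and 9.11 (1.17 ± 0.41). PRKX had 3 of 6 probe sets above placebo without overlap and 1 below it. SPG11 was 0.89 without the second placebo array, and its brighter probe set differed by -0.02. ADI1, an enzyme of methionine salvage, had 8.69, 8.79 and 8.77 under EP, against 6.82, 8.29 and 7.37 under placebo (1.26 ± 0.50), and its brighter probe set differed by 0.28. FAM81B had 5.06, 6.49 and 6.37 under EP, against 7.10, 7.11 and 7.26 under placebo (-1.18 ± 0.46). Its first EP array was the lowest, the difference was -0.73 without that array, and a second probe set differed by -0.13.

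The single-hormone groups place these values, given here for some of the 32 genes with the lowest p. CNTNAP2 averaged 9.30 under EP, 9.31 under estrogen, 8.77 under progesterone and 7.95 under placebo. KLF11 averaged 6.58 under EP, 6.71 under estrogen, 7.44 under progesterone and 7.58 under placebo. UBAP1L averaged 7.40 under EP, 5.94 under estrogen, 7.47 under progesterone and 6.23 under placebo. ALDH6A1 averaged 8.37 under EP, 7.55 under estrogen, 7.14 under progesterone and 7.07 under placebo, and NUP160 5.94 under EP, 7.15 under estrogen, 6.73 under progesterone and 7.38 under placebo. Among the 32 genes, the estrogen mean lay on the EP side of placebo in 31 and the progesterone mean in 29. The EP mean lay beyond the estrogen mean in 31 and beyond the progesterone mean in 30. The genes were chosen for their EP difference and the comparisons share their placebo arrays, both of which favour such counts. The likeness of the single-hormone values was therefore not tested.

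**Figure D5:**
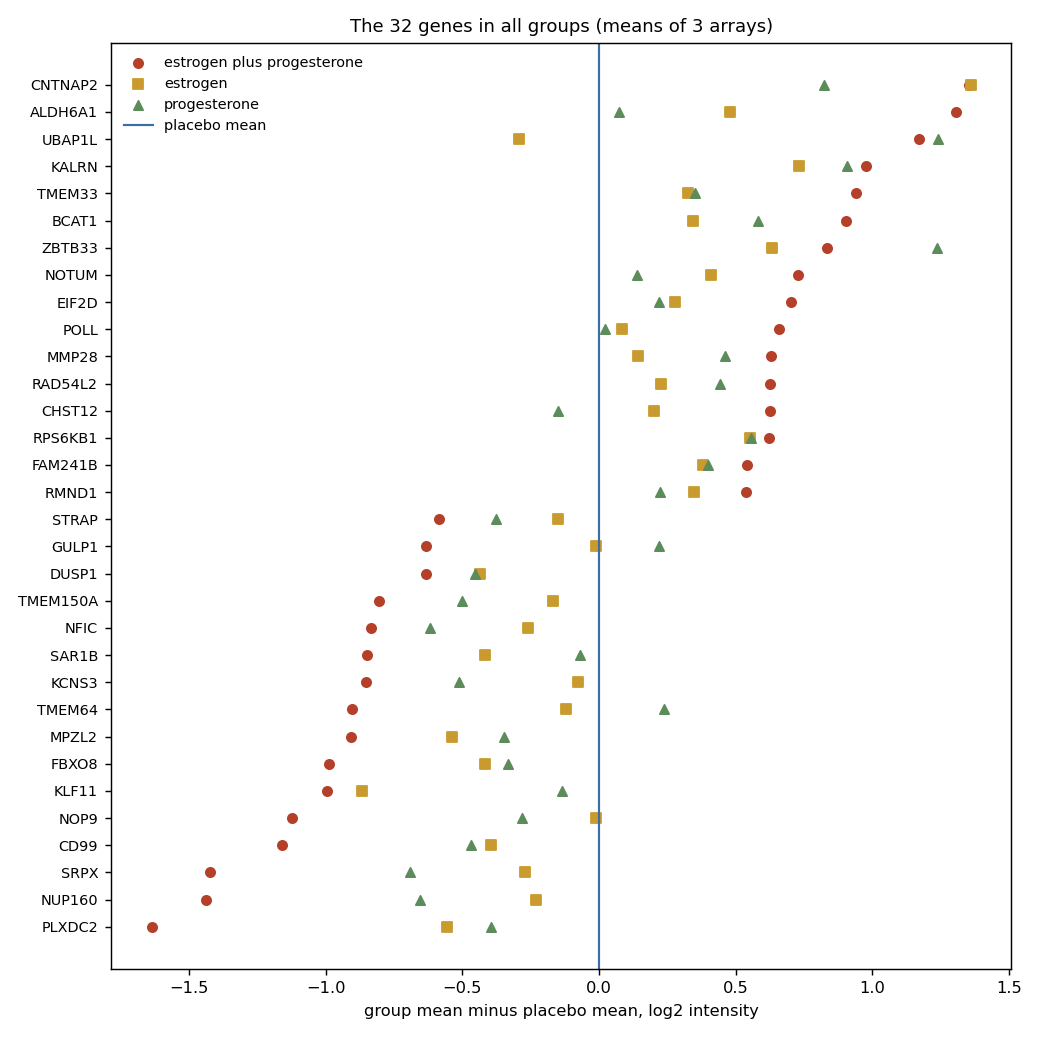
Group mean minus placebo mean (log2 intensity) of the 32 genes with the lowest p in EP against placebo, for EP (red circles), estrogen (yellow squares) and progesterone (green triangles), with the placebo mean at the line. The genes were chosen for their EP difference, so the EP points lie far from the line by selection.

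EP was also set directly against each hormone alone in the same fit. Against estrogen, limma called 0 of 26354 probe sets (0%), and among the 32 genes the lowest adjusted p was 0.9999. Against progesterone it called 23 (0.0873%), and among the 32 genes the lowest adjusted p was 0.0936. Over all genes named for the comparison with placebo, 1 passed against progesterone, ELFN2, a postsynaptic leucine-rich repeat protein. ELFN2 was at 7.96, 7.87 and 7.78 under EP, with a mean of 6.29 under progesterone, 7.64 under estrogen and values of 7.13, 7.43 and 7.52 under placebo. Its difference from placebo was 0.51 ± 0.21, and a brighter probe set differed by 0.15. The pass against progesterone was lost without any 1 of the EP arrays and without the second progesterone array or the third one.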

How the data were processed

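The deposited values were 1 intensity per probe set and array, as the authors gave them. Their trimmed mean, leaving out 2% at either end, was 200.0 on each array, and no label or header used here names the software. Of 52865 probe sets, 99 control and 59 reporter-gene probe sets were removed. Intensities were floored at 5.01 (the 5th percentile), put on a log2 scale and quantile normalized, since array medians spanned 6.16 to 6.63 in log2. The 26354 probe sets at or above the median of the mean values (log2 6.32, an intensity of 79.7) were tested with limma 3.58.1 in R 4.3.3. The fit held 1 mean per group over all 12 arrays, with 8 residual degrees of freedom, and p-values were adjusted by the Benjamini-Hochberg method over all tested probe sets. With 3 arrays per group an exact permutation test of 1 value could not go below 0.1, and the number of arrays limits the precision. The calculation was tested on simulated data. Gene names came from the platform annotation, with the RefSeq symbol of the same Entrez gene used where there was one. There were 24956 probe sets with 1 symbol, 361 with several and 27390 with none, and no name was drawn from those with several. Symbols that were only locus numbers, on 918 tested probe sets, were not used as names. Lists used the brightest probe set of each gene.

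Among probe sets with 1 symbol whose EP arrays all lay outside the placebo range, the named genes were the 16 lowest p in each direction, the 8 largest differences in each direction at an unadjusted p under 0.05, and up to 4 genes per list (not all of which the text gives), as well as 13 genes whatever their values (TPH2, MAOA, SLC18A2, FEV, ESR1, ESR2, PGR, FKBP5, HTR1A, CRHR1, CRHR2, UCN and BDNF). BCAT2, BCL2, CNTNAP1, FOS, GATA3, GCH1, HIBCH, HTR2A, HTR7, IER5, KIF5C, KLF4, LRRC4B, LRRTM1, MAPK14, PPM1K, SAR1A, PCP2, the cell type markers and the genes with several low-p probe sets were named after their values were seen, as was the gap of 1 log2 unit for single arrays. The members and lists were chosen with earlier results of these data known.

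The replicate numbers in the titles were checked for pairing. Deviations from the group means correlated at 0.27, 0.10 and 0.24 between EP and placebo arrays of the same number, against -0.25 to 0.11 for unlike numbers. Each same-number value was above 0.1, so a fit with the number as a block was run beside the unblocked one. The labels name no litter, batch or day behind the numbers.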

Additional observations from a re-analysis of the deposited data

How the results depend on the processing

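The absence of calls held under median alignment, no further normalization, both other floors, the stricter filter, the fit of the 6 arrays alone, the brightest probe set per gene and both replicate block fits. It did not hold without a filter on dim probe sets, or without the second EP array, where 1 probe set with no gene name passed each time, and leaving out 1 array gave 0 to 1. The count at an unadjusted p under 0.05 (1017) was 1623 with the replicate block on the 6 arrays and 1029 with it on all 12, so the pairing changed no call past the correction. That count was 2263 without a filter, 566 with the filter at the 75th percentile, 379 on the brightest probe sets, and with 1 array left out between 631, when that was the first placebo array, and 1559, when it was the third. Probe sets wholly above placebo (1232) numbered 774 under median alignment, 2365 without a filter, 672 with the 75th percentile and 448 on the brightest probe sets. Those wholly below placebo (1539) numbered 2736 without a filter, 878 with the 75th percentile and 567 on the brightest probe sets. Fewer arrays overlap less by construction: with 1 left out the counts were 2008 to 3408 above and 2591 to 3577 below, and without the first EP, estrogen and placebo arrays, an alternative chosen after seeing the data, 5192 and 5019.

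Of the named genes, 1 passed against progesterone (ELFN2). It was 2 under median alignment (with PPM1K), 0 to 2 with 1 array left out, and 0 without a filter, with the 75th percentile, on the brightest probe sets and without the 3 first arrays. Against estrogen 0 passed under each alternative run. Differences near 0 changed sign in 15 gene values and kept it in 3692, and the cause was not tested. MBP was 0.062 under median alignment and 0.098 without normalization, and PAQR6 0.019 without normalization. With 1 array left out MAOA ranged from -0.073 to 0.16, FEV from -0.33 to 0.098, SLC18A2 from -0.18 to 0.067, UCN from -0.18 to 0.18, BDNF from -0.34 to 0.19 and CRHR1 from -0.18 to 0.072. Without the 3 first arrays UCN was 0.10 and BDNF 0.083. List medians moved by more than their spread in 69 values and by less in 1009. With 3 arrays per group the median 95% interval of 0.49 to each side limits what can be seen, and values near the floor have no order.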
